A study of Homo sapiens with 12 samples.

Results

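A set of 8 genes of the urokinase system and of pericellular matrix proteolysis was followed through 12 RNA-seq libraries: PLAU, PLAUR, PLAT, SERPINE2, ADAMTS1, MMP14, TIMP1 and TIMP2. They were chosen by symbol, all 8 were found once among the 60669 genes of the deposited tables, and all 8 were among the 16695 genes tested after the filter on low counts. The libraries come from PANC-1, an established human line of pancreatic ductal adenocarcinoma, in which siRNA was reverse transfected and left for 72 h. The siRNA was a control or was directed against SIK3, a salt-inducible kinase that the titles call AS1. Recombinant human TNF-α, which signals through NF-κB, was then given at a final 100 ng/mL and cells were harvested 30 min or 4 h later, or they were left without TNF. Each of the 6 conditions has 2 libraries that the study describes as biological replicates. A transient siRNA lowers a transcript in a pool of cells without removing the gene, and the titles name 1 siRNA for the target, so an effect of the target and of that siRNA cannot be told apart.

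The names of the conditions conflict. The same 6 pairs of libraries are found by title and by file name, but file-name words and titles give a different condition for 8 of the 12 libraries. The conditions below are those of the file names, in which Scr1 or SIK3 gives the siRNA and CLM was read as no TNF, and the libraries are called control-named and SIK3-named. The pair named control without TNF has the same title. The pair named control with TNF 30 min is titled SIK3 siRNA unstimulated, and the pair named control with TNF 4 h is titled control siRNA with TNF 30 min. The pair named SIK3 without TNF is titled SIK3 siRNA with TNF 30 min, the pair named SIK3 with TNF 30 min is titled control siRNA with TNF 4 h, and the pair named SIK3 with TNF 4 h has the same title. So the comparison of the pair named control with TNF 4 h with the pair named control without TNF is TNF-treated against untreated control siRNA under both sets of names, at a different time.

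The targeted gene was checked first. SIK3 (chromosome 11, 116843402 to 117098437, minus strand, GRCh38) lay at 34.3 to 68.7 CPM, counts scaled to library size by TMM and given per 1e6, in the 6 control-named libraries and at 16.3 to 24.0 CPM in the 6 SIK3-named ones, with no overlap. By title the ranges were 17.3 to 65.2 and 16.3 to 68.7 CPM, which overlap almost wholly. Between file-name conditions SIK3 was lower by log2 fold changes of -1.29 without TNF, -1.43 at 30 min and -1.27 at 4 h, with adjusted p = 0.0231, 0.0146 and 0.0244. NFKBIA, the gene of an NF-κB inhibitor that NF-κB itself induces, averaged 216 CPM in control-named libraries without TNF, 638 at 30 min and 941 at 4 h, and both rises passed the test (adjusted p = 3.49e-04 and 9.03e-06). Of NFKBIA, TNFAIP3, CXCL8 and ICAM1, genes known to respond to TNF, 3 rose at 30 min and 4 at 4 h in the control-named libraries, and 2 and 4 in the SIK3-named ones.

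Total gene counts were 13535825 to 22699756 per library. A level of 3 counts, taken as an approximate upper limit for a count of 0, stands for 0.132 to 0.222 CPM. That limit is not a hard bound and covers counting error only. Reads outside annotated genes made up 16.5 and 17.1% in the pair named SIK3 with TNF 4 h and 8.35 to 10.5% in the other 10 libraries. Multimapping reads were 4.94 to 17.6% in replicate 1 and 10.2 to 45.3% in replicate 2. Keratins 7, 8, 18 and 19 with EPCAM, markers of a ductal carcinoma line, summed to 5219 to 6880 CPM. All 6 leukocyte and all 5 endothelial markers stayed under 1 CPM. The 6 fibroblast markers summed to 6.64 to 10.4 CPM in control-named and 8.03 to 16.5 CPM in SIK3-named libraries, and 3 of them stayed under 1 CPM.

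PLAU encodes urokinase, a secreted serine protease that converts plasminogen to plasmin, and PLAUR encodes its cell-surface receptor, which holds that activity at the cell edge. PLAT encodes tissue-type plasminogen activator, and SERPINE2 encodes protease nexin-1, a serpin that inhibits urokinase, tissue-type activator and thrombin. MMP14 is a membrane-anchored metalloproteinase that cleaves collagen and activates pro-MMP2, ADAMTS1 is a secreted metalloproteinase that cleaves proteoglycans such as versican, and TIMP1 and TIMP2 are secreted inhibitors of metalloproteinases, of which TIMP2 also takes part in pro-MMP2 activation by MMP14. In pancreatic carcinoma this system is known for its part in invasion through the stroma.

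The promoters are shown because PLAU and PLAUR, ligand and receptor, rose with TNF at 4 h, MMP14 fell there in the control-named libraries and TIMP1 passed no test without a replicate block. RefSeq promoters (GRCh38.p14) were found for 5 of the 8 genes, as 7 windows, and the 250 bases upstream of the annotated start follow for 4 genes, 5′ to 3′ on the gene's strand, with motif matches in capitals. PLAU has 2 listed starts, at chr10:73910360-73910609 (plus strand) and chr10:73910882-73911131 (plus strand). PLAUR is at chr19:43670170-43670419 (minus strand), MMP14 at chr14:22836335-22836584 (plus strand) and TIMP1 at chrX:47582186-47582435 (plus strand).
PLAU, upstream start: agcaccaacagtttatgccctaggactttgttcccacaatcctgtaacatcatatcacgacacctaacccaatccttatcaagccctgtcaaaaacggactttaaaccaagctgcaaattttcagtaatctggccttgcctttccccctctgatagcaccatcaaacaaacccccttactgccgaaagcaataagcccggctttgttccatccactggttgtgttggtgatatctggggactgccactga
PLAU, downstream start: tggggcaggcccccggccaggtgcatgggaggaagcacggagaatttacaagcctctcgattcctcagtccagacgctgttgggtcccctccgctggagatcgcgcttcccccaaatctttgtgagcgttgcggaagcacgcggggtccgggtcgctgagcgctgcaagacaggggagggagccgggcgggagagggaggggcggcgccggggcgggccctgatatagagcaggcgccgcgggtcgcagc
PLAUR: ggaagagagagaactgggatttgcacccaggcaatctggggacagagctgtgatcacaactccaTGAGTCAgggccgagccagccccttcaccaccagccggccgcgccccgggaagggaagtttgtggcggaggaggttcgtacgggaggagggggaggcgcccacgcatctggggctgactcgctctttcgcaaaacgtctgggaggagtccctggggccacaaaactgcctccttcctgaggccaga
MMP14: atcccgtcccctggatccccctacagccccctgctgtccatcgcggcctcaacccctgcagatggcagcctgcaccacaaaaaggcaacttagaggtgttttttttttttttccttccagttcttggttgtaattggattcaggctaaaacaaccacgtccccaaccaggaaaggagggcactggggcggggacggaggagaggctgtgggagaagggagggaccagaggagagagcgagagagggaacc
TIMP1: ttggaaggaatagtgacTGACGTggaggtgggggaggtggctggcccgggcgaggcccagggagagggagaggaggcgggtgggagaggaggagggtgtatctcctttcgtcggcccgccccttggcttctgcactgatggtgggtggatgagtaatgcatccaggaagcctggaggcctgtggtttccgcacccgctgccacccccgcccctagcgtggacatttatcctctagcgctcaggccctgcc
The windows were searched on both strands for the NF-kB consensus, for AP-1 (TGANTCA), for the cAMP response element (TGACGTCA) and for its part TGACGT, which the full element contains. PLAUR had 1 AP-1 match, TGAGTCA, whose first base is at -186 from the start, and TIMP1 had 1 TGACGT at -233. No motif was found in the windows of PLAU, MMP14 or SERPINE2. Of 35116 promoters of the same 300-base length, 5.91% held the NF-kB consensus, 7.71% AP-1, 1.85% TGACGTCA and 7.98% TGACGT. A match here is a run of letters and shows no binding.

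Per kilobase of exon, over the 12 libraries, the median level was 159 CPM per kb for PLAU, 18.9 for TIMP1, 3.86 for ADAMTS1, 3.67 for MMP14, 1.92 for PLAUR, 1.79 for TIMP2, 0.337 for SERPINE2 and 0.124 for PLAT. The range of PLAU, 108 to 392 CPM per kb, lay above that of TIMP1, 11.6 to 22.0, in all libraries. The neighbours ADAMTS1 (0.224 to 12.1) and MMP14 (1.51 to 6.52) overlapped, as did PLAUR (0.999 to 4.36) and TIMP2 (0.798 to 3.27), and SERPINE2 (0.0864 to 0.575) and PLAT (0.0593 to 1.82). The protease was thus measured well above its receptor in transcripts per exon length. Its counts are subject to a limit: PLAU shares 916 exon bases with C10orf55 on the opposite strand, which had 1883 counts over the 12 libraries against 119026 for PLAU, and the strand setting of the counting is not given in the sources used here.

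**Figure D1:**
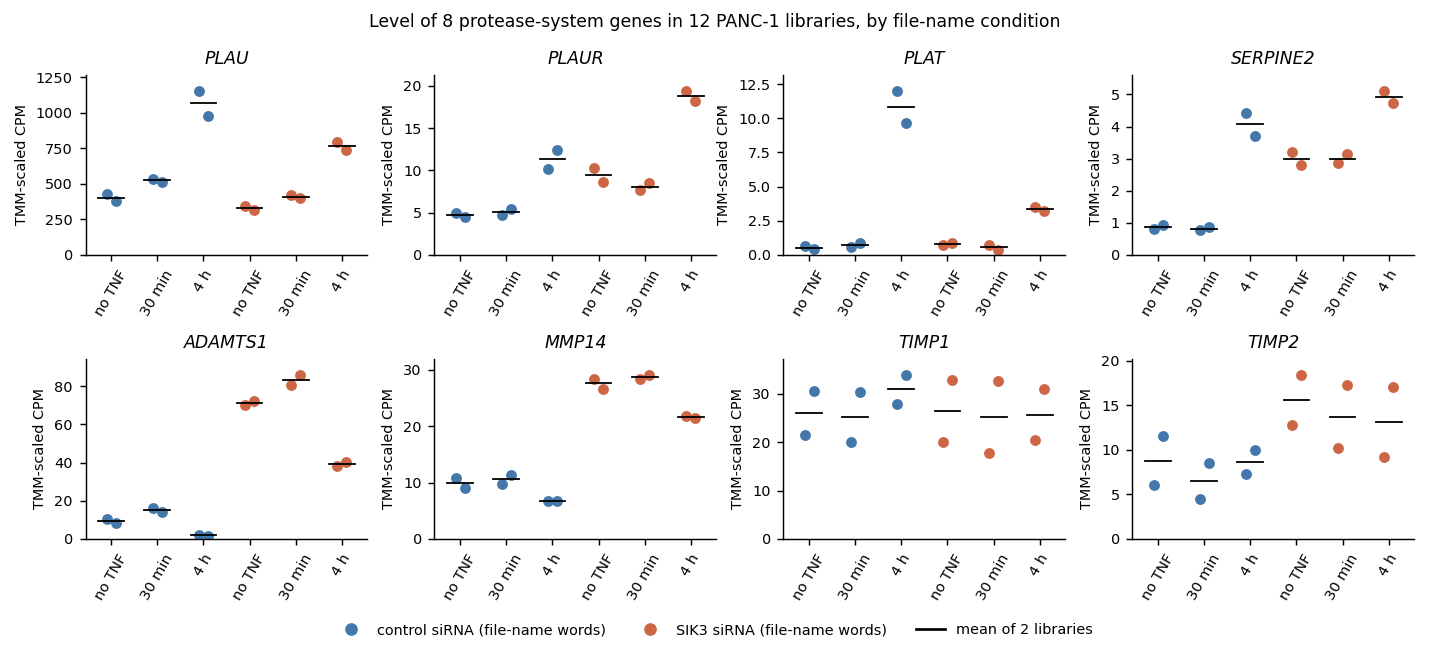
Level of each of the 8 genes (TMM-scaled CPM, linear axis from 0) in the 12 libraries by file-name condition; points are libraries, blue control-named and red SIK3-named, and bars are means of 2. Among the control-named libraries PLAU, PLAUR, PLAT and SERPINE2 are highest at 4 h, and ADAMTS1 and MMP14 are higher in every SIK3-named library than in any control-named one.

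TNF for 4 h in the control-named libraries was first compared with no TNF (titled control siRNA with TNF 30 min against unstimulated). Of the 8 genes 4 rose (PLAU, PLAUR, PLAT, SERPINE2) and 2 fell (ADAMTS1, MMP14), that is 6 of 8, where 5.53% of all genes tested rose and 3.46% fell, 8.99% in all (23.5% with a replicate block, which left the 6 calls as they were). The median log2 fold change was 0.75 over the 8 genes and -0.03 over all genes. The 8 genes were chosen with earlier results of these data known, so their share is a description.

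Among the activators, PLAU stood at 426 and 381 CPM without TNF and at 1155 and 982 CPM at 4 h in replicates 1 and 2, with no overlap. The difference was 2.65-fold (log2 1.40, SE 0.10, adjusted p = 3.08e-05, edgeR's quasi-likelihood test with Benjamini-Hochberg adjustment over all genes, as throughout). PLAT moved furthest, from 0.634 and 0.424 CPM, only 12 and 6 counts, to 12 and 9.65 CPM, or 198 and 122 counts. That is 19.8-fold by the fit (log2 4.31, SE 0.31, adjusted p = 2.52e-05). For the receptor PLAUR, libraries without TNF had 5.02 and 4.45 CPM and those at 4 h 10.2 and 12.4 CPM. Both libraries at 4 h lay above both without TNF, by 2.37-fold (log2 1.25, SE 0.17, adjusted p = 0.00110).

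The inhibitor SERPINE2 went from 0.793 and 0.919 CPM to 4.43 and 3.72 CPM, 4.78-fold (log2 2.26, SE 0.22, adjusted p = 1.36e-04), so activators and this inhibitor rose in the same libraries. ADAMTS1 went the other way, from 10.2 and 8.34 CPM to 2.12 and 1.58 CPM, which is 4.95-fold lower (log2 -2.31, SE 0.17, adjusted p = 3.30e-05). MMP14 was at 10.8 and 9.12 CPM without TNF and 6.80 and 6.72 CPM at 4 h, 1.48-fold lower (log2 -0.56, SE 0.13, adjusted p = 0.0263). That last call is the least firm of the 6: the adjusted p was 0.124 to 0.182 when any of 3 of the 4 libraries was left out, 0.0559 by the DESeq2 Wald test and 0.0815 with no filter. TIMP1 (26.0 and 30.9 CPM on average) and TIMP2 (8.77 and 8.62) did not pass, with 95% intervals of the log2 fold change from -0.56 to 1.06 and from -1.03 to 1.00.

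At TNF 30 min in the control-named libraries, no member passed without a block, where 0.294% of all genes did, though 2 had an unadjusted p under 0.05. These were ADAMTS1, at 16.3 and 13.9 CPM against 10.2 and 8.34 (log2 0.70, SE 0.14, adjusted p = 0.140), and PLAU, at 537 and 514 CPM against 426 and 381 (log2 0.38, SE 0.10, adjusted p = 0.482). In both the 30 min libraries lay above those without TNF. With the replicate number as a block both passed (adjusted p = 0.00101 and 2.99e-05), as did 2.78% of all genes. ADAMTS1 also passed by the DESeq2 Wald test (adjusted p = 0.0108) and with no filter (adjusted p = 0.0247). By title this pair is SIK3 siRNA against control siRNA, both unstimulated.

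**Figure D2:**
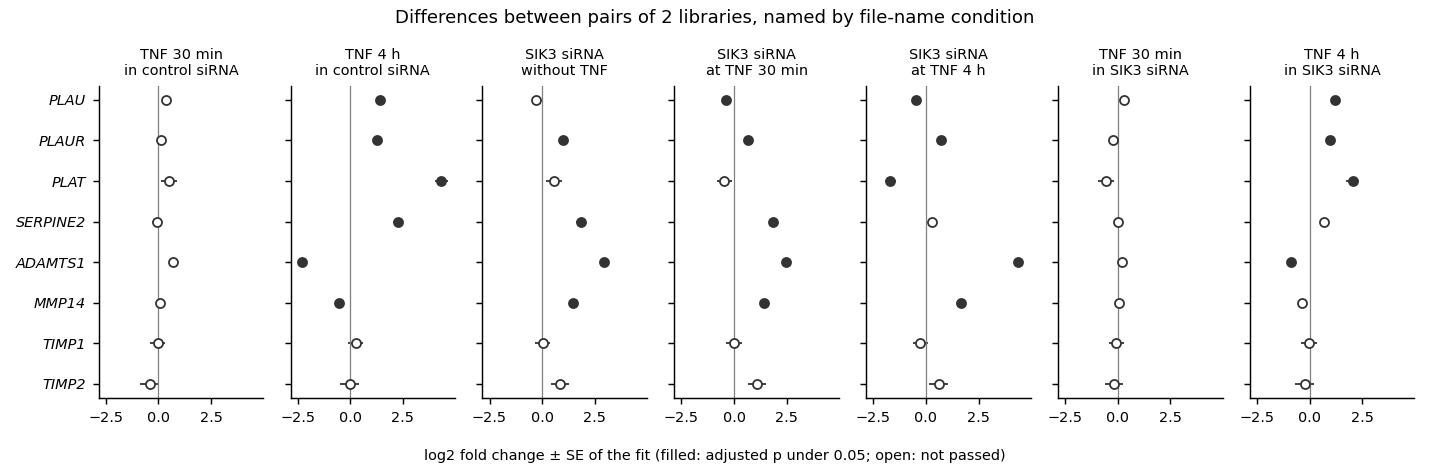
Log2 fold change of the 8 genes in the 7 pairwise comparisons of file-name conditions, with the SE of the fit; filled points passed an adjusted p under 0.05 without a block. At TNF 4 h in control-named libraries 6 points are filled, and ADAMTS1 lies below 0 there but above 0 in all 3 comparisons of siRNAs.

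The comparison of SIK3-named with control-named libraries asks what the knockdown does to these genes at each time of TNF. Without TNF 4 of the 8 rose and none fell, while 18.9% of all genes rose and 19.8% fell (38.6% in all). At 30 min 4 rose and 1 fell, against 18.2% and 19.6% of all genes (37.8% in all). At 4 h 3 rose and 2 fell, against 19.6% and 19.9% (39.5% in all). With the replicate block 58.4, 58.5 and 58.8% of all genes passed. The share of the 8 that rose was above that of all genes at each time. The 8 were chosen with earlier results of these data known and a large share of all genes passed, so these counts are a description. The sizes are described below. By title these pairs are SIK3 siRNA with TNF 30 min against control unstimulated, control with TNF 4 h against SIK3 siRNA unstimulated, and SIK3 siRNA with TNF 4 h against control with TNF 30 min.

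ADAMTS1 had the widest difference. It was at 70.2 and 72.4 CPM in the SIK3-named libraries without TNF against 10.2 and 8.34 in the control-named ones, 7.66-fold higher (log2 2.94, SE 0.14, adjusted p = 9.36e-07). At 30 min it was at 80.5 and 85.8 CPM against 16.3 and 13.9, 5.49-fold higher (adjusted p = 1.87e-06). At 4 h it was at 38.2 and 40.3 CPM against 2.12 and 1.58, 20.9-fold higher (log2 4.38, SE 0.17, adjusted p = 7.75e-07). Even the lowest SIK3-named library, at 38.2 CPM, lay above the highest control-named one, at 16.3 CPM.

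MMP14, the membrane-bound protease, was likewise higher at each time: 28.4 and 26.7 CPM against 10.8 and 9.12 without TNF (2.76-fold), 28.3 and 29.1 against 9.82 and 11.3 at 30 min (2.72-fold), and 21.9 and 21.4 against 6.80 and 6.72 at 4 h (3.20-fold). The adjusted p were 1.90e-05, 2.07e-05 and 1.57e-05, and all 6 SIK3-named libraries lay above all 6 control-named ones. PLAUR differed by less: 10.3 and 8.57 CPM against 5.02 and 4.45 without TNF (1.99-fold, adjusted p = 0.00109), 7.64 and 8.53 against 4.77 and 5.41 at 30 min (1.59-fold, adjusted p = 0.00955) and 19.4 and 18.2 against 10.2 and 12.4 at 4 h (1.67-fold, adjusted p = 0.00430). SERPINE2 was at 3.22 and 2.79 CPM against 0.793 and 0.919 without TNF (3.53-fold, adjusted p = 1.48e-04) and at 2.85 and 3.14 against 0.768 and 0.857 at 30 min (3.66-fold, adjusted p = 1.15e-04). At 4 h it was at 5.11 and 4.74 against 4.43 and 3.72, a difference that did not pass (log2 0.27, 95% interval -0.13 to 0.67).

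The activators themselves were lower where they differed. PLAU was at 347 and 318 CPM against 426 and 381 without TNF, which passed only with the block (log2 -0.28, adjusted p = 0.0573 without it and 4.40e-05 with it). At 30 min it was at 420 and 399 against 537 and 514 (1.28-fold lower, adjusted p = 0.0201), and at 4 h at 794 and 739 against 1155 and 982 (1.39-fold lower, adjusted p = 0.00486). PLAU and its receptor PLAUR thus moved in opposite directions in the SIK3-named libraries at 30 min and 4 h. At 30 min both calls were lost without control-named replicate 1 (adjusted p = 0.0734 for PLAU and 0.0842 for PLAUR) or without SIK3-named replicate 2 (0.0790 and 0.0704). PLAT did not pass without TNF (0.752 and 0.884 CPM against 0.634 and 0.424) or at 30 min (0.713 and 0.392 against 0.603 and 0.910). At 4 h PLAT was at 3.52 and 3.20 CPM against 12 and 9.65, 3.23-fold lower (log2 -1.69, SE 0.25, adjusted p = 5.43e-04). The higher share of reads outside genes in the SIK3-named pair at 4 h goes with each result at 4 h, and its part in them was not tested.

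In the SIK3-named libraries, 3 genes rose and 1 fell with TNF for 4 h, where 3.65% of all genes rose and 0.767% fell, 4.42% in all (both pairs titled SIK3 siRNA, at TNF 4 h and 30 min). PLAU went from 347 and 318 to 794 and 739 CPM (2.30-fold, adjusted p = 3.71e-04), PLAUR from 10.3 and 8.57 to 19.4 and 18.2 CPM (1.99-fold, adjusted p = 0.00698) and PLAT from 0.752 and 0.884 to 3.52 and 3.20 CPM (4.12-fold, adjusted p = 0.00529). ADAMTS1 fell from 70.2 and 72.4 to 38.2 and 40.3 CPM (1.82-fold, adjusted p = 0.00641). The groups did not overlap in any of these. The call of PLAU held without each library in turn, while those of PLAT, PLAUR and ADAMTS1 were lost without at least 1 library (adjusted p = 0.0680 for PLAT without the SIK3-named replicate 1 without TNF, 0.0652 to 0.0859 for PLAUR and 0.0537 to 0.0633 for ADAMTS1). SERPINE2, from 3.22 and 2.79 to 5.11 and 4.74 CPM, and MMP14, from 28.4 and 26.7 to 21.9 and 21.4 CPM, passed only with the block (adjusted p = 0.0623 without and 0.0131 with it, and 0.167 and 0.00971), when 21.8% of all genes did. At 30 min no member passed without a block (0.150% of all genes did), 1 had an unadjusted p under 0.05, and PLAU passed with the block (log2 0.30, adjusted p = 6.47e-04), when 3.37% of all genes did.

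Whether TNF changed a gene to a different extent in the 2 sets of libraries was tested as an interaction, the log2 change with TNF in the SIK3-named libraries minus that in the control-named ones. At 4 h 3 of the 8 genes passed, 1 with a positive and 2 with a negative difference, where 0.719% and 0.845% of all genes did, 1.56% in all. PLAT rose by log2 2.04 in the SIK3-named and 4.31 in the control-named libraries, a difference of -2.27 (SE 0.45, 95% interval -3.28 to -1.25, adjusted p = 0.0432). SERPINE2 had log2 changes of 0.70 and 2.26, a difference of -1.55 (SE 0.28, adjusted p = 0.0302). For ADAMTS1 the changes were -0.86 and -2.31, a difference of 1.45 (SE 0.22, adjusted p = 0.0148). In each, the change was smaller in the SIK3-named libraries, from a starting level that was higher by test for SERPINE2 and ADAMTS1.

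The 3 calls were sensitive to leaving out 1 of the 8 libraries. Without each in turn the adjusted p was 0.0805 to 0.176 for PLAT and 0.0633 to 0.146 for SERPINE2, so neither passed in any omission. For ADAMTS1 it was 0.0539 to 0.0709 in 6 of the 8 omissions, and the call held without control-named replicate 2 without TNF (adjusted p = 0.0260) and without control-named replicate 1 at 4 h (adjusted p = 0.0351). By the DESeq2 Wald test SERPINE2 did not pass (adjusted p = 0.0579). With the block the adjusted p were 0.00262, 0.00376 and 5.64e-05, when 12% of all genes passed. PLAU, which rose in both sets, had an interaction of -0.20 that did not pass (95% interval -0.53 to 0.12), and PLAUR one of -0.25 (-0.76 to 0.25). At 30 min no gene of the 16695 passed by edgeR without a block (0%) and 0.264% did with it, none of them a member. Without the block 317 had an unadjusted p under 0.05, the DESeq2 Wald test called 6, and among the members only ADAMTS1 had an unadjusted p under 0.05 (log2 -0.48, 95% interval -0.91 to -0.05).

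**Figure D3:**
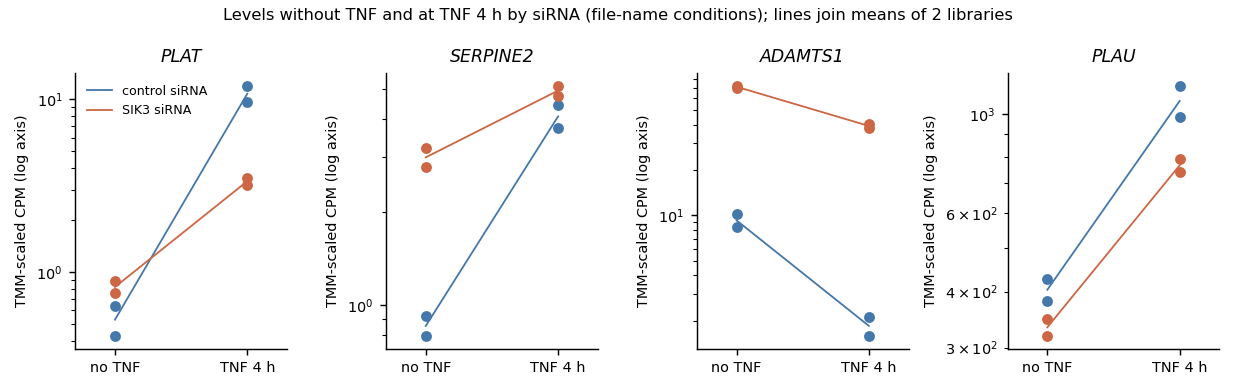
Levels of PLAT, SERPINE2, ADAMTS1 and PLAU (TMM-scaled CPM, log axis, different for each gene) without TNF and at 4 h by file-name siRNA; points are libraries and lines join means of 2. The lines of PLAT, SERPINE2 and ADAMTS1 differ in slope, while those of PLAU are near parallel (interaction -0.20).

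The inhibitors TIMP1 and TIMP2 differed between the replicates of every condition. TIMP1 was at 21.5 and 30.6 CPM in the control-named libraries without TNF, 20.1 and 30.4 at 30 min and 27.9 and 33.9 at 4 h. In the SIK3-named libraries it was at 20.1 and 32.9, 17.8 and 32.6, and 20.4 and 30.9 CPM. Replicate 2 was the higher in 6 of 6 conditions, by a median log2 of 0.59. TIMP1 passed no comparison without the block. With it, TIMP1 was lower in the SIK3-named libraries at 4 h (log2 -0.29, adjusted p = 0.0207, where 58.8% of all genes passed with the block).

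TIMP2 showed the same order of replicates, 6 of 6, by a median log2 of 0.82. Its control-named libraries had 6.08 and 11.5 CPM without TNF, 4.50 and 8.51 at 30 min and 7.28 and 9.96 at 4 h. The SIK3-named libraries had 12.8 and 18.4, 10.2 and 17.3, and 9.16 and 17.0 CPM, so that each replicate was higher than its control-named counterpart at each time. No difference passed without the block (log2 0.84, 1.08 and 0.61, with adjusted p = 0.166, 0.0844 and 0.308), and all 3 passed with it (log2 0.87, 1.08 and 0.58, with adjusted p = 5.03e-06, 4.20e-07 and 0.00108). Multimapping was also higher in replicate 2 in 6 of 6 conditions, and its part in these levels was not tested. PLAU was higher in replicate 1 in 6 of 6 conditions, by a smaller median log2 of 0.11 in size.

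**Figure D4:**
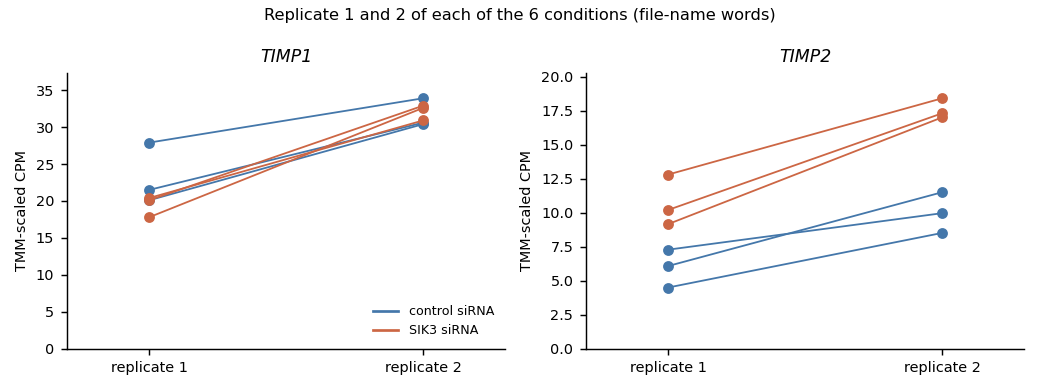
TIMP1 and TIMP2 (TMM-scaled CPM, linear axis from 0) in replicates 1 and 2, with 1 line per file-name condition. All 12 lines go up, and the 3 SIK3-named lines of TIMP2 lie above its 3 control-named lines within each replicate.

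Other genes of the pathway were counted in lists chosen with earlier results known. Of 20 other genes of plasminogen activation 14 were tested. PLG, the plasminogen gene itself, was not: it had at most 0.136 CPM and no count in 10 of 12 libraries. At TNF 4 h in control-named libraries 2 of the 14 rose and none fell, where 5.53% of all genes rose and 3.46% fell. TNFAIP6, the gene of a TNF-induced hyaluronan-binding protein, averaged 0.521 CPM, or 5 and 11 counts, without TNF and 3.95 CPM at 4 h (7.94-fold, adjusted p = 0.00478).

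In the SIK3-named against the control-named libraries, 4 of these 14 rose and 4 fell without TNF, 3 and 4 at 30 min, and 3 and 6 at 4 h. Over all genes 38.6, 37.8 and 39.5% passed in these comparisons, about equally in each direction. THBD, which encodes thrombomodulin, averaged 7.64 against 0.874 CPM without TNF (9.09-fold, adjusted p = 1.07e-04). LRP1, an endocytic receptor that clears protease-inhibitor complexes, averaged 21.7 against 4.37 CPM (4.99-fold, adjusted p = 6.75e-04). ENO1, a glycolytic enzyme that also serves as a plasminogen receptor, was 1.55-fold lower (adjusted p = 5.05e-04). S100A10, another plasminogen receptor subunit, was 1.67-fold lower at 30 min (adjusted p = 0.00156). TNFAIP6 was 6.85-fold lower at 4 h (adjusted p = 0.00163), with 10 and 9 counts in the SIK3-named libraries.

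Among 10 other matrix metalloproteinases tested of 22, 2 rose and 1 fell with SIK3 siRNA without TNF by file name. Over all genes 18.9% rose and 19.8% fell there. MMP24 (14.1 against 5.52 CPM, adjusted p = 1.22e-04) and MMP17 (5.28 against 2.22 CPM, adjusted p = 0.00235) were the 2 that rose, and both also passed at 30 min and 4 h. Both are membrane-type enzymes like MMP14, but so are MMP16 and MMP15, which went the other way. MMP16 was lower without TNF (log2 -0.33, adjusted p = 0.0134) and at 30 min (log2 -0.36, adjusted p = 0.00790). MMP15 was lower at 30 min (log2 -0.76, adjusted p = 0.0102) and at 4 h (log2 -0.58, adjusted p = 0.0349). Of 3 genes tested from a list of 5 other protease inhibitors, TIMP3 averaged 7.03 against 0.556 CPM (12.1-fold, adjusted p = 1.30e-04) and TFPI2 35.1 against 14.4 CPM (2.43-fold, adjusted p = 8.71e-06). The TIMP genes thus differed among themselves, with TIMP3 passing at all 3 times without the block and TIMP1 at none.

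Of 25 other ADAMTS and ADAMTS-like names, 12 were tested. At TNF 4 h in control-named libraries 1 rose and 1 fell, where 5.53% of all genes rose and 3.46% fell. ADAMTS4, an aggrecan-cleaving protease, averaged 0.150 CPM, or 3 and 2 counts, without TNF and 1.58 CPM at 4 h (adjusted p = 9.33e-04). ADAMTS15 averaged 51.4 and 38.3 CPM (1.34-fold lower, adjusted p = 0.0334). With SIK3 siRNA by file name, 5 rose and 1 fell without TNF and at 30 min, and 5 rose and 2 fell at 4 h, where 38.6, 37.8 and 39.5% of all genes passed, about equally in each direction. ADAMTS16 was higher at each time (2.65-, 2.36- and 3.69-fold, adjusted p = 0.00238, 0.00508 and 7.18e-04). Without TNF, ADAMTSL4 (8.59-fold, adjusted p = 6.27e-04) and ADAMTS17 (8.55-fold, adjusted p = 0.00142) were higher by more. ADAMTS17 had at most 0.865 CPM in any library. ADAMTS3, a procollagen-processing protease, was lower at each time (3.18-, 2.72- and 4.20-fold, adjusted p = 0.00464, 0.00939 and 0.00230), and ADAMTS4 was 4.65-fold lower at 4 h (adjusted p = 0.00127).

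Substrates and partners of the proteases were a list of 16, of which 12 were tested. VCAN, which encodes the ADAMTS1 substrate versican, averaged 0.476 CPM without TNF and 2.35 CPM at 4 h in control-named libraries (4.84-fold, adjusted p = 0.00259), and 2.67 CPM without TNF in SIK3-named ones (5.37-fold, adjusted p = 3.88e-04). THBS1, the gene of thrombospondin-1, averaged 1570 against 208 CPM without TNF (7.55-fold, adjusted p = 3.91e-07). ITGB3, the gene of a vitronectin receptor subunit, averaged 3.22 against 15.8 CPM (4.82-fold lower, adjusted p = 1.24e-04). SDC4, the gene of the heparan sulfate proteoglycan syndecan-4, rose 3.56-fold with TNF 4 h in control-named libraries (adjusted p = 2.83e-06) and 1.56-fold in SIK3-named ones (adjusted p = 0.00283), and the difference passed as an interaction (log2 -1.19, adjusted p = 0.00308). VCAN also passed as an interaction at 4 h (log2 -2.24, adjusted p = 0.0419), with log2 changes with TNF of 2.27 in control-named and 0.04 in SIK3-named libraries. Its level was low, with 0.329 CPM in its lowest library. Leaving out single libraries was done for the members only, so neither of these interactions was checked in that way.

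Genes whose log2 CPM over the 12 libraries was most like that of a member were listed as a description, since the 12 libraries share 6 conditions and a common depth scaling. For PLAU these were ARHGAP24 (Pearson r 0.986), HSPA1A (0.976) and EFNA1 (0.974), and for PLAUR COL7A1 (0.977), GADD45A (0.973) and BTG1 (0.970). For ADAMTS1 they were TRIB2 (0.991), MLPH (0.989) and MAGEF1 (0.988), and for TIMP1 PRCC (0.958), SZRD1 (0.955) and SAMD4B (0.954). The comparisons above share libraries, among them the control-named pair without TNF, which enters 3 of the 7, so their results are not independent of each other.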

How the data were processed

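Total RNA was extracted with RNeasy and DNase I and made into libraries with the ScriptSeq kit, per the labels. Each deposited table gives 1 column of raw read counts for Ensembl genes, and the submitters' processing notes name STAR 2.05b, edgeR and GRCh38. The strand setting and annotation release are not given in the sources used here. Symbols and gene positions came from GENCODE 29 (GRCh38), in which 3742 identifiers had no name. The 4 summary lines of each table stayed out of library sizes.

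Conditions were named by file-name words, with titles as an alternative. The members and lists were chosen with earlier results of these data known. In R 4.3.3 and edgeR 4.0.16, genes were filtered by filterByExpr (minimum count 10), which kept 16695, and scaled by TMM. A single quasi-likelihood fit of the 12 libraries with 6 residual degrees of freedom gave 7 pairwise comparisons and 2 interactions, with Benjamini-Hochberg adjustment across the tested genes and a limit of 0.05. Replicates spread well beyond counting error (chi-square per degree of freedom 16.5 to 33.5). The labels call them biological, without saying whether separate cultures were used, so p-values measure the spread between these samples.

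The replicate number was checked for pairing by the correlation of replicate deviations between groups, across genes. It exceeded 0.1 in 15 of 15 pairs of groups (0.350 to 0.530, median 0.421), so values with the number as a block are given where it changes a call. Other alternatives were DESeq2 1.42.0 size factors, the DESeq2 Wald test, no filter, each library left out in turn, and, chosen after seeing the data, the titles together with the block. Named genes were the members, SIK3, the 4 genes of the TNF check (NFKBIA, TNFAIP3, CXCL8, ICAM1), up to 4 called genes per list with the smallest p, and the 3 genes most like PLAU, PLAUR, ADAMTS1 and TIMP1 with a mean of at least 5 CPM. The values of 1 gene that this rule names are not reported here. Simulated counts with known changes were used to test the script, for TNF 4 h in control-named libraries over 16138 genes. Changes of 1.5-, 2- and 4-fold were put in with no replicate effect, and 57, 65 and 71 of the changed genes were tested after the filter. Changed genes that the filter removed are not counted. Of these, 3.51% of the 1.5-fold, 40.0% of the 2-fold and 71.8% of the 4-fold changes were found. In the data many more genes passed, so these rates do not give the share of real changes found above. Promoters were searched in Python 3.11.15.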

Additional observations from a re-analysis of the deposited data

Results flagged for a closer look

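At TNF 4 h, 3 of the 8 genes were singled out because the change with TNF differed by test between the SIK3-named and the control-named libraries. The interaction, the log2 change in the SIK3-named minus that in the control-named libraries, was -2.27 for PLAT (adjusted p = 0.0432), -1.55 for SERPINE2 (adjusted p = 0.0302) and 1.45 for ADAMTS1 (adjusted p = 0.0148), by edgeR's quasi-likelihood test over all genes. In PLAT the lowest levels rest on 6 to 18 counts per library, in SERPINE2 on 13 to 16 and in ADAMTS1 on 20 and 35.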

How the results depend on the processing

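Depth limits PLAT and SERPINE2 most, whose lowest levels rest on few counts. Of 72 values (8 genes in 9 comparisons) 27 passed, and 18 of these passed under every omission of 1 library. Where an omission leaves a condition with 1 library, that library is assumed to vary like the others. With the replicate block no passing value was lost and 10 more passed. Values near 0 changed sign: TIMP2 at TNF 4 h in control-named libraries was 0.01 with the block and with DESeq2 size factors, and SERPINE2 at TNF 30 min in SIK3-named libraries 0.01 with no filter. The cause of the changes below was not tested, except that the titles compare other pairs of libraries.

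The number of genes passing, all genes tested, was 464 with the block against 49 without it for TNF 30 min in control-named libraries, 3928 against 1501 for TNF 4 h there, 9746 against 6449 for SIK3-named libraries without TNF and 9771 against 6314 at 30 min. It was 563 against 25 for TNF 30 min in SIK3-named libraries, 3642 against 738 for TNF 4 h there, and 44 against 0 and 1996 against 261 for the interactions at 30 min and 4 h. Members passing with the block were 2 and 1, against 0, for TNF 30 min in the control-named and SIK3-named libraries. The DESeq2 Wald test called 85, 57 and 6 genes for TNF 30 min in control-named libraries, in SIK3-named libraries and their interaction. With no filter these were 101, 90 and 18, with 1109 for TNF 4 h in SIK3-named libraries and 505 for the interaction at 4 h. In the control-named libraries at 30 min 1 member passed by either.

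Leaving out 1 library gave 22 to 27 genes for TNF 30 min in control-named libraries and 857 to 922 for 4 h. It gave 4835 to 5262, 4668 to 4943 and 4766 to 5237 for SIK3-named against control-named libraries without TNF, at 30 min and at 4 h, where 3 to 5 members passed at 30 min. In SIK3-named libraries it gave 6 to 11 genes for TNF 30 min and 212 to 273 for 4 h, with 2 to 3 members. For the interaction at 4 h it gave 61 to 116 genes and 0 to 1 members. Member values that changed sign on an omission ranged as follows, as log2 fold changes. For TNF 30 min in control-named libraries they were SERPINE2 -0.17 to 0.04, MMP14 -0.03 to 0.22, TIMP1 -0.37 to 0.25 and TIMP2 -0.95 to 0.11. TIMP2 was -0.42 to 0.50 at TNF 4 h there, and TIMP1 -0.36 to 0.32 between siRNAs without TNF. In SIK3-named libraries SERPINE2 was -0.10 to 0.10, TIMP1 -0.56 to 0.33 and TIMP2 -0.61 to 0.16 at 30 min, and TIMP1 -0.37 to 0.34 and TIMP2 -0.76 to 0.10 at 4 h. In the interactions SERPINE2 was -0.05 to 0.16, MMP14 -0.16 to 0.09, TIMP1 -0.53 to 0.36 and TIMP2 -0.28 to 0.78 at 30 min, and TIMP1 -0.62 to 0.10 and TIMP2 -0.75 to 0.18 at 4 h.

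With conditions from the titles, 41 of the 72 values changed sign, 13 of which passed by file name. With the titles and the replicate block together, an alternative chosen after seeing the data, 42 did. Log2 fold changes by title follow, each with the value with the block after it where that differs. For TNF 30 min with control siRNA, SERPINE2 was 2.26 (2.27), ADAMTS1 -2.31, MMP14 -0.56 (-0.57), TIMP1 0.25 (0.27) and TIMP2, with the block, 0.01. For TNF 4 h with control siRNA, ADAMTS1 was 3.16 (3.15), MMP14 1.52 (1.51), TIMP1 -0.04 (-0.07) and TIMP2 0.66. For SIK3 siRNA without TNF, PLAU was 0.38, SERPINE2 -0.06, TIMP1 -0.04 (-0.05) and TIMP2 -0.42. At 30 min PLAUR was -0.25 (-0.23) and SERPINE2 -0.44. At 4 h PLAU was 0.91 (0.90), PLAT 2.59 (2.60), ADAMTS1 -1.08, MMP14 -0.41, TIMP1 0.03 (0.04) and TIMP2 -0.06 (-0.07). For TNF 30 min with SIK3 siRNA, PLAU was -0.66, PLAUR 0.89 (0.91), PLAT 0.09 (0.06), SERPINE2 1.88 (1.89), TIMP1 0.06 (0.05) and TIMP2 1.25 (1.29). For TNF 4 h with SIK3 siRNA, ADAMTS1 was 1.37 (1.38), MMP14 1.04, TIMP1 0.03 (0.02) and TIMP2 1.01. For the interaction at 30 min SERPINE2 was -0.37 (-0.38), ADAMTS1 4.54 and MMP14 1.95 (1.96). At 4 h PLAU was 0.52, PLAUR 1.12, PLAT 2.11 (2.10), SERPINE2 0.78 (0.77), ADAMTS1 -1.78 (-1.77), MMP14 -0.48, TIMP1 0.07 (0.09) and TIMP2 0.35.

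By title, without and with the block, the genes passing were 1501 and 3928 for TNF 30 min with control siRNA and 6330 and 9648 for 4 h. They were 49 and 464 for SIK3 siRNA without TNF, 10185 at 30 min with the block, and 1182 at 4 h without it. They were 6687 and 9980 for TNF 30 min with SIK3 siRNA, 6980 and 10302 for 4 h, 4760 and 8415 for the interaction at 30 min, and 576 and 3374 at 4 h. Members passing by title were 6 for TNF 30 min with either siRNA, with or without the block, and 0 and 2 for SIK3 siRNA without TNF. They were 7 for TNF 4 h with SIK3 siRNA with the block, 4 and 5 for the interaction at 30 min, and 5 for that at 4 h with the block.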
